A study of Sus scrofa with 15 samples.

Results

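The genes described here are 10 that act on the 3′ ends of mRNAs, namely *CSTF1*, *CSTF2*, *CSTF3*, *CPSF1*, *CPSF2*, *CPSF3*, *CPSF4*, *CPEB1*, *CPEB2* and *CPEB4*. They were taken by symbol from a table of 43294 features, with earlier results of these data known. Known genes made up 28224 of them, and the other 15070 were transcripts that the authors assembled from their reads and that carry no gene name. All 10 symbols had an entry of their own. RNA-seq libraries of pig embryos made by somatic cell nuclear transfer (SCNT) and of their donor cells were compared, with 3 libraries in each of 5 groups. PFF were pig fetal fibroblasts at passages 2 to 5. SCNT4c and SCNT8c were untreated SCNT embryos at the 4-cell and the 8-cell stage. SCNT4c-KG were 4-cell embryos injected with *KDM4A* mRNA, which encodes an H3K9 demethylase, at 5 h after activation and kept from 0 to 48 h in 0.1 µM GSK126, which blocks EZH2, the enzyme that methylates H3K27. SCNT4c-TDG were 4-cell embryos from fibroblasts that had been transfected with a doxycycline-inducible *TDG* vector and selected with puromycin, and doxycycline was given from 40 to 72 h. *TDG* encodes a DNA glycosylase that takes part in active DNA demethylation. No embryos given doxycycline without the *TDG* vector were analysed here, so the vector, the selection, the doxycycline and TDG cannot be told apart. Each embryo library was a pool of 30 embryos. Nothing in the labels says that the libraries of a group came from separate cultures, so p-values measure the spread between these libraries, which may be technical.

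Most mRNAs receive their poly(A) tail in the nucleus. The cleavage and polyadenylation specificity factor (CPSF) binds the poly(A) signal, usually AATAAA in the DNA strand of the gene, and holds the nuclease that cuts the transcript. The cleavage stimulation factor (CstF) binds a GU-rich stretch behind the cut. In oocytes and early embryos, which store mRNAs and transcribe little until their genome is activated, tails are also shortened and lengthened in the cytoplasm. The CPEB proteins bind the cytoplasmic polyadenylation element (CPE), TTTTAT or TTTTAAT in the DNA strand, in the 3′ untranslated region of stored mRNAs, and by this their translation is held back or switched on.

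Recovered reads per library ranged from 12354649 in SCNT4c-KG to 22868038 in PFF, and the 3 SCNT4c-KG libraries were the shallowest. Titles and descriptions disagree on the numbers of the SCNT4c samples, and these libraries are called a, b and c. The descriptions of the SCNT4c-KG samples carry the names of the 3 columns taken here as SCNT4c. Columns were assigned by the sample titles, so every comparison with SCNT4c or SCNT4c-KG rests on the titles. Summed over 13 fibroblast marker genes, the normalized values were 3903553 to 4129543 in PFF. In the embryos these sums were 4475 to 5898 in SCNT4c, 2727 to 4084 in SCNT4c-KG, 1827 to 2428 in SCNT4c-TDG and 2264 to 2886 in SCNT8c. Summed over 15 oocyte marker genes they were 16.6 to 27.4 in PFF, 366734 to 410801 in SCNT4c, 137217 to 227807 in SCNT4c-KG and 50163 to 54259 in SCNT4c-TDG. *TDG* was at 55575 ± 5177 (SD, n = 3) in SCNT4c-TDG against 1713 ± 802 in SCNT4c, and at 4366 ± 436 in SCNT4c-KG, and both groups were higher than SCNT4c (limma, adjusted p = 5.66e-08 and 0.00195). The study, which also used in vivo embryos, reports from FPKM that the treatment of SCNT4c-KG did not rescue *TDG*. *KDM4A* was at 1448 ± 24.9 in SCNT4c-KG and at 775 ± 194 in SCNT4c-TDG, against 194 ± 103 in SCNT4c (adjusted p = 0.000220 and 0.00375). No *KDM4A* injection is described for SCNT4c-TDG, and the difference in *KDM4A* between the 2 treatments did not pass (limma, adjusted p = 0.204). A rise over SCNT4c is thus not particular to the injection, so the level of *KDM4A* does not check the label of SCNT4c-KG. One library stood apart from its group. SCNT8c replicate 3 had an oocyte marker sum of 289712, against 114063 and 73827 in replicates 1 and 2, and results at the 8-cell stage are given with and without it. In pooled embryos, fewer cells with an mRNA and less of it per cell cannot be told apart. The cDNA kit that the study names primes on the poly(A) tail, so the amount of an mRNA and the state of its tail cannot be told apart either.

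The 3′ ends of the genes whose levels are followed most closely were read from the reference genome (Sscrofa11.1, RefSeq annotation), since these are the elements that CPSF and the CPEB proteins bind. Each line gives 30 bases near the end of the last exon of the longest annotated transcript, with the element in capitals.

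CSTF1 poly(A) signal, chr17:56984029-56984058, plus strand: acacattctgatAATAAAgctcagatctgc

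CSTF2 poly(A) signal, chrX:82540832-82540861, plus strand: ttgtcattaattctttAATAAAtttttatt

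CSTF2 CPE, same bases: ttgtcattaattctttaataaatTTTTATt

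CSTF3 poly(A) signal, chr2:27850350-27850379, plus strand: atcctttaaaacAATAAAaggatctcaaaa

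CPSF2 poly(A) signal, chr7:113690371-113690400, plus strand: gctttttacttgAATAAAacagtgcaactt

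CPSF4 variant signal, chr3:6388626-6388655, plus strand: tttatgaagttgATTAAAgcttgtttttta

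CPEB2 poly(A) signal, chr8:10472105-10472134, plus strand: tgttgactgactAATAAActattaagttat

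CPEB4 poly(A) signal, chr16:50430346-50430375, minus strand: agatgttgaatgAATAAAacttttaactca

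AATAAA was found within the last 50 bases of the longest annotated transcript of *CSTF1*, *CSTF2*, *CSTF3*, *CPSF2*, *CPEB2* and *CPEB4*. Among 18875 protein-coding genes with such a window, 51.8% held AATAAA there and 14.5% held ATTAAA, the variant in *CPSF4*. A CPE, as TTTTAT or TTTTAAT on the same strand as the mRNA, lay in the last 150 bases of *CSTF2*, *CSTF3*, *CPSF3* and *CPSF4*, against 21.4% of all these genes. In *CSTF2* the CPE began 7 bases before the annotated end and followed the poly(A) signal. The transcript of *CPSF2* ends before the annotated end of its gene at 113690524. These matches are letters in the annotated last exon and not measured binding sites. The annotation of *CPEB1* is partial and ends with its coding sequence, so no 3′ window of it was read in the same way, and none was read for *CPSF1*.

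Of the 10 genes, 8 had a mean of at least 10 over the 12 embryo libraries and could be tested there, since *CPSF1* was too low and *CPEB1* was listed at 0. A change needed a Benjamini-Hochberg adjusted p under 0.05 over all features tested with limma and a fold change above 2 on the log2(value + 1) scale, which understates the change of low genes. In SCNT4c-KG against SCNT4c, *CSTF1* and *CSTF3* were higher and *CPSF2* was lower. That is 3 of the 8 genes, where 37.2% of all 18942 features changed, 17.6% higher and 19.6% lower. The libraries of these groups did not overlap for 5 of the 8 genes and for 53.9% of all features. In SCNT4c-TDG against SCNT4c, *CSTF1*, *CSTF3*, *CPEB2* and *CPEB4* were higher and *CSTF2* was lower. These are 5 of the 8 genes, where 33.3% of all features changed, 15.7% higher and 17.6% lower. Libraries did not overlap for 6 of the 8 genes and for 58.4% of all features. The median log2 fold change of the 8 genes was 0.42 in SCNT4c-KG and 0.61 in SCNT4c-TDG, beside -0.30 and -0.26 over all features. Both comparisons use the same 3 SCNT4c libraries.

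**Figure D1:**
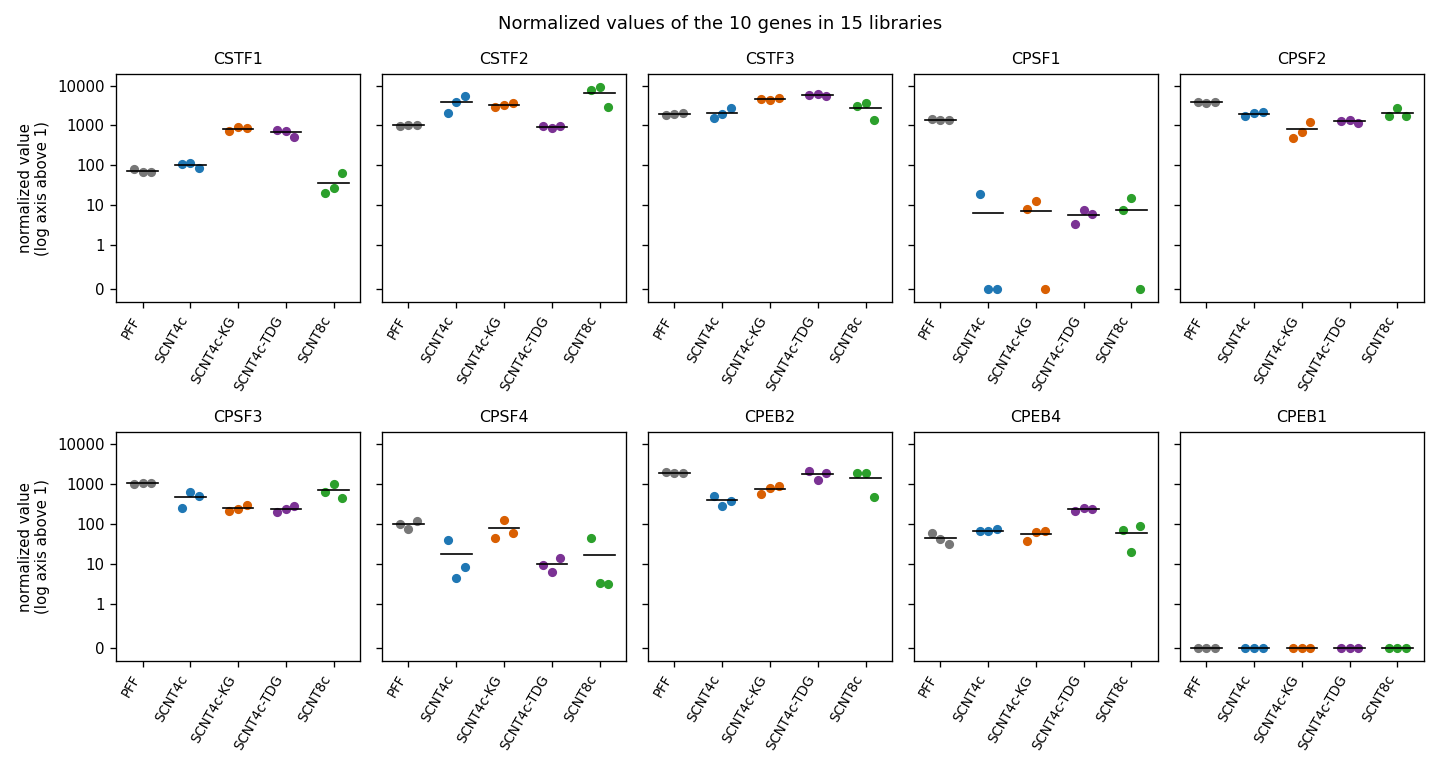
Normalized values of the 10 genes in each library, on an axis that is logarithmic above 1, with 3 points per group and a bar at the group mean. The *CSTF1* values of SCNT4c-KG and SCNT4c-TDG lie between 505 and 915, above the 87.2 to 111 of SCNT4c, and *CPEB1* is at 0 in all 15 libraries.

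*CSTF1* (chr17:56972202-56984065, plus strand) encodes a subunit of CstF. It had normalized values of 109, 111 and 87.2 in SCNT4c libraries a, b and c. In SCNT4c-KG replicates 1 to 3 the values were 720.4, 915 and 861, and in SCNT4c-TDG they were 764, 735 and 505. Every treated library lay above every SCNT4c library, while SCNT4c-KG and SCNT4c-TDG overlapped. The log2 fold change was 3.01 ± 0.44 (SE) in SCNT4c-KG (limma, adjusted p = 0.000113) and 2.68 ± 0.44 in SCNT4c-TDG (adjusted p = 0.000318), or 8.13 and 6.53 times the SCNT4c mean. SCNT4c-TDG and SCNT4c-KG differed by -0.33, with a 95% interval of -1.27 to 0.61. The donor cells were low as well, with 81.8, 66.2 and 69.1 in PFF. In SCNT8c the values were 20.5, 27.4 and 62.3, so by its own entry the order of the groups was SCNT4c-KG, SCNT4c-TDG, SCNT4c, PFF and SCNT8c, with overlap between the first pair alone.

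The *CSTF1* result depends on which features are counted at the locus. *CSTF1* overlaps *AURKA*, which encodes a mitotic kinase that also phosphorylates CPEB1 in oocytes, by 234 bases on opposite strands, of which 206 are exonic in both. The strand setting of the counting is not given in the sources used here. *AURKA* was listed at 0 in all 15 libraries. The locus listed for *CSTF1* runs from 17433 bases before the gene to 1803 bases behind it, and it spans all of *AURKA*. It holds 2 assembled transcripts, whose place within it is not given by the table. The first (MSTRG.148618) was at 371, 398 and 475 in SCNT4c, at 1031, 1025 and 556 in SCNT4c-KG, at 914, 928 and 1017 in SCNT4c-TDG, and at 0 in PFF. The second (MSTRG.148619) was at 517, 636 and 618 in SCNT4c, at 105, 95.2 and 204 in SCNT4c-KG, at 144, 83.6 and 164 in SCNT4c-TDG, and at 53.6 to 109 in PFF. So 1 of them was higher and the other lower in the treated embryos, by 1.02 and -2.21 on the log2 scale in SCNT4c-KG (limma, adjusted p = 0.0492 and 0.00552) and by 1.20 and -2.22 in SCNT4c-TDG (adjusted p = 0.0259 and 0.00579). The rise of the first missed the threshold in 7 of 16 alternatives in SCNT4c-KG (adjusted p up to 0.153) and in 5 of 16 in SCNT4c-TDG (up to 0.0778). Among these were the fits without any 1 of the SCNT4c libraries or without SCNT4c-KG replicate 1 or 2, and, in SCNT4c-TDG, those without SCNT4c library a or b or any 1 of the SCNT4c-TDG libraries. The fall of the second passed in each. When the entry of *CSTF1* was summed with both, the log2 fold change fell to 0.73 in SCNT4c-KG (adjusted p = 0.129) and to 0.66 in SCNT4c-TDG (adjusted p = 0.171), and neither passed. The same sum raised the difference of SCNT4c over PFF from 0.49 (adjusted p = 0.0876) to 2.82 (adjusted p = 2.94e-05), and on its own entry it passed with the same total, edgeR and DESeq2, so the order of the groups also rests on the features counted and the scale. Which gene each transcript belongs to was not tested, so the sums may hold RNA of *AURKA* as well as of *CSTF1*.

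**Figure D2:**
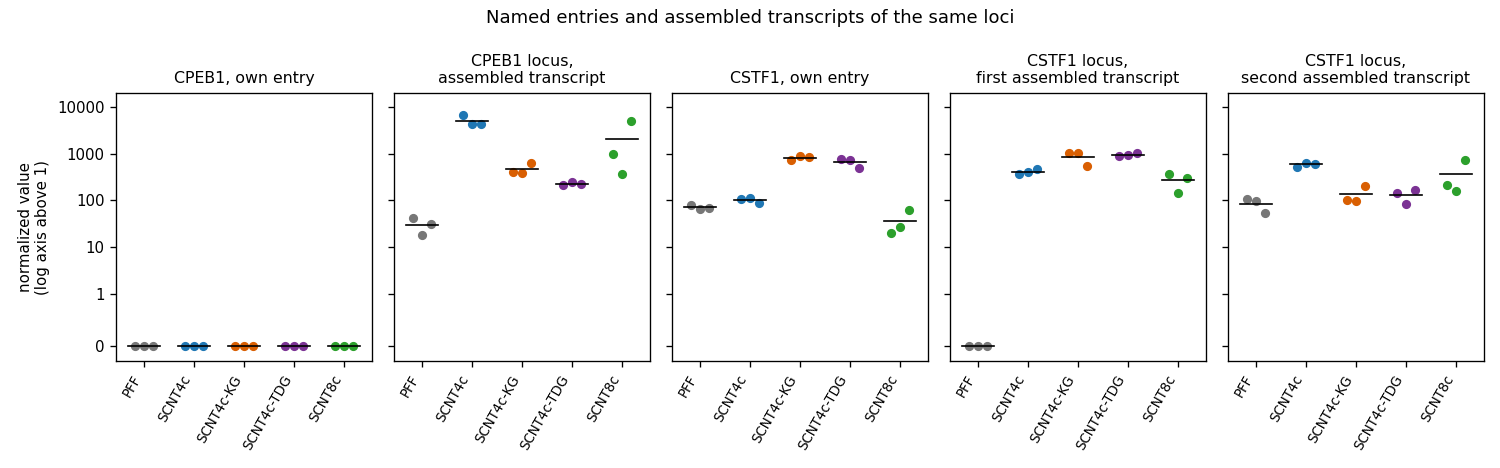
Normalized values per library, on an axis that is logarithmic above 1, of *CPEB1* and *CSTF1* and of the assembled transcripts listed at the same loci, with bars at the group means. The *CPEB1* entry is at 0 everywhere, while the transcript at its locus is at 4238 to 6625 in SCNT4c and at 217 to 633 in the treated embryos.

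*CSTF2* (chrX:82508739-82540861, plus strand) encodes the subunit of CstF that binds RNA. It was at 2032, 3795 and 5514 in SCNT4c and at 2823, 3344 and 3564 in SCNT4c-KG. In SCNT4c-TDG it was at 956, 872 and 947. All 3 SCNT4c-TDG libraries lay below all SCNT4c and SCNT4c-KG libraries, and the latter pair of groups overlapped. The log2 fold change was -1.92 ± 0.42 (SE) in SCNT4c-TDG against SCNT4c (limma, adjusted p = 0.00257) and -1.80 ± 0.42 against SCNT4c-KG (adjusted p = 0.00827). Against SCNT4c, SCNT4c-KG stood at -0.11 with a 95% interval of -0.999 to 0.77. The last 198 bases of *CSTF2* overlap *NOX1* on the other strand.

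*CSTF3* (chr2:27769457-27850382, plus strand) encodes the scaffold subunit that links the other subunits of CstF. Its values were 1537, 1978 and 2818 in SCNT4c, 4608, 4329.9 and 4813 in SCNT4c-KG, and 5902, 6154 and 5580.3 in SCNT4c-TDG. The 3 groups did not overlap with each other. Against SCNT4c, the log2 fold change was 1.16 ± 0.34 (SE) in SCNT4c-KG (limma, adjusted p = 0.0143) and 1.52 ± 0.34 in SCNT4c-TDG (adjusted p = 0.00305). Without SCNT4c library a, the change in SCNT4c-KG was 0.96 with an adjusted p of 0.0628 and did not pass. So by the genes' own entries in SCNT4c-TDG, the transcripts of 2 CstF subunits were higher and that of the third was lower. The rise of *CSTF1* did not pass when summed over its locus.

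Of the CPSF genes, *CPSF2* was the one called in a treated group. This gene (chr7:113659903-113690524, plus strand) encodes the inactive partner of the cleavage nuclease. It was at 1765, 2013 and 2131 in SCNT4c, at 479, 703 and 1209.8 in SCNT4c-KG, and at 1255, 1365 and 1152 in SCNT4c-TDG. Both treated groups lay below SCNT4c without overlap. The fall passed the test in SCNT4c-KG, by -1.40 ± 0.34 (SE) on the log2 scale (limma, adjusted p = 0.00456), and did not in SCNT4c-TDG, with -0.65 ± 0.34 (adjusted p = 0.151). The direct difference between the treatments was 0.76 (adjusted p = 0.141), and it passed with the same total in each library and without SCNT4c-KG replicate 3, at 1.12 and 1.11.

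*CPSF3* (chr3:126868519-126905699, minus strand) encodes the nuclease that cuts the pre-mRNA. Its values were 256, 633 and 511 in SCNT4c, 212, 242 and 294 in SCNT4c-KG, and 197, 242 and 289.99 in SCNT4c-TDG. SCNT4c library a lay within the range of the treated libraries, and the other SCNT4c libraries lay above it. The log2 fold changes of -0.82 in SCNT4c-KG (limma, adjusted p = 0.139) and -0.86 in SCNT4c-TDG (adjusted p = 0.131) did not pass, with 95% intervals of -1.72 to 0.09 and -1.76 to 0.05. Without SCNT4c library a both passed, with -1.20 (adjusted p = 0.0471) and -1.24 (adjusted p = 0.0450).

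*CPSF4* (chr3:6374346-6388662, plus strand) encodes a zinc finger subunit that contacts the poly(A) signal. It was low, with 39.4, 4.37 and 8.30 in SCNT4c, 45.7, 128 and 58.4 in SCNT4c-KG, and 9.20, 6.14 and 13.8 in SCNT4c-TDG. SCNT4c-KG lay above both other groups without overlap. Its log2 fold change over SCNT4c was 2.49 ± 1.05 (SE) and did not pass (limma, adjusted p = 0.0740). Over the alternatives this value ranged from 0.30 to 3.33, with adjusted p from 0.0338 to 0.617, and it passed in 4 of 16, one of them the fit without SCNT4c library a. These values rest on 5 to 101 reads in the libraries of SCNT4c and SCNT4c-KG.

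*CPSF1* (chr4:382887-393732, plus strand) encodes the largest CPSF subunit. It was at 18.9, 0 and 0 in SCNT4c, at 8.17, 12.7 and 0 in SCNT4c-KG, and at 3.35, 7.67 and 6.12 in SCNT4c-TDG. No library of embryos had more than 24 reads on it. In PFF it was at 1419.5, 1356 and 1355. A further transcript at the *CPSF1* locus, without gene name, was at 76.0 to 102 in SCNT4c, at 42.0 to 87.0 in PFF, and at 7.12 to 63.5 in SCNT4c-KG. In SCNT4c-TDG this transcript was at 32.1 to 60.6 and in SCNT8c at 6.53 to 30.8.

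**Figure D3:**
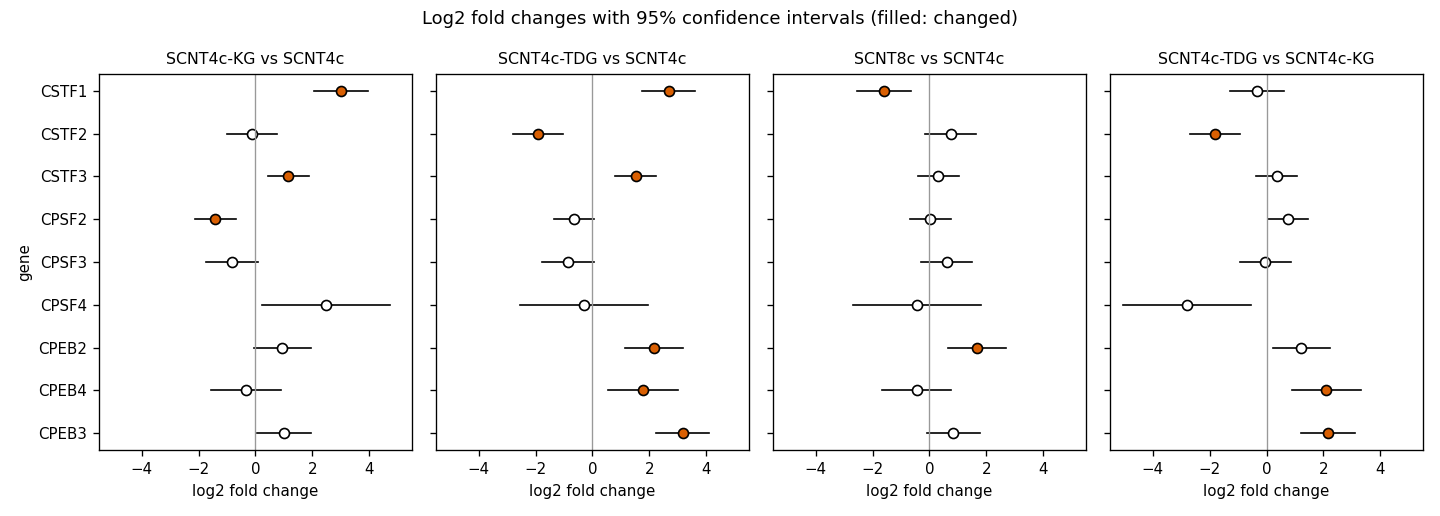
Log2 fold changes (dots) with 95% confidence intervals (lines) of the 8 genes tested and of *CPEB3* in 4 comparisons of embryos, from limma on log2(value + 1), with filled dots for genes that changed. *CPEB2*, *CPEB4* and *CPEB3* are filled in SCNT4c-TDG against SCNT4c, with 2.17, 1.78 and 3.18, and open in SCNT4c-KG against SCNT4c.

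*CPEB1* (chr7:52329054-52382408, plus strand) encodes the CPE-binding protein best known from oocyte maturation. Its own entry held 0 reads in all 15 libraries, and a count of 0 allows up to 3 reads in a library. The locus in the table runs from 24126 bases before the annotated gene to 976 bases behind it and holds 1 assembled transcript (MSTRG.71216). This transcript was at 6625, 4238 and 4268 in SCNT4c. It was at 407, 389.6 and 633 in SCNT4c-KG, at 217, 245 and 229 in SCNT4c-TDG, and at 41.5, 17.8 and 31.0 in PFF. All treated libraries lay below all SCNT4c libraries and above PFF. On the log2 scale the change was -3.40 in SCNT4c-KG (limma, adjusted p = 0.000833) and -4.42 in SCNT4c-TDG (adjusted p = 0.000108), and it was 7.39 in SCNT4c over PFF (adjusted p = 6.52e-06). Over all alternatives tried it stayed between -3.63 and -3.19 in SCNT4c-KG and between -4.53 and -4.14 in SCNT4c-TDG, and it passed in each.

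Whether this transcript is *CPEB1* was not tested. HTSeq usually counts a read that lies on 2 overlapping features for neither, and the table gives the assembled transcript no coordinates of its own within the locus. A long noncoding RNA, LOC110261547, lies in an intron of *CPEB1* on the minus strand. The case is not rare in the table, since 4062 known genes were at 0 in all libraries and 1499 of them (36.9%) shared their locus with an assembled transcript of mean 10 or more. Among them were *MOS*, *GDF9* and *BMP15*, known oocyte genes.

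The sum over the oocyte markers fell with the transcript at the *CPEB1* locus, with ranges of 366734 to 410801 in SCNT4c, 137217 to 227807 in SCNT4c-KG and 50163 to 54259 in SCNT4c-TDG. Of the 15 markers, 11 could be tested, of which 4 were lower and 1 was higher in SCNT4c-KG and 6 were lower in SCNT4c-TDG, where 19.6% and 17.6% of all features were lower. In SCNT4c the sum rested mostly on *KPNA7*, *H1FOO*, *WEE2* and *ZP4*, at 115607, 106897, 83899 and 74784. Each of these had a lower mean in both treatments. By contrast, means were higher in SCNT4c-KG for *ZP3* (667 against 28.1), *BTG4* (5926 against 1529) and *OOEP* (1405.5 against 708). *GDF9*, *BMP15* and *MOS* were at 0 on their own entries in SCNT4c. The transcript at the *BMP15* locus was at 6139.7 in SCNT4c, 13532 in SCNT4c-KG and 1178 in SCNT4c-TDG, so in SCNT4c-KG its mean was higher, and those at the *GDF9* and *MOS* loci had lower means in both treatments. The part of stored maternal RNA in the result was not tested.

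*CPEB2* (chr8:10401350-10472141, plus strand) and *CPEB4* (chr16:50430345-50499086, minus strand) encode relatives of CPEB1 that closely resemble each other in their RNA-binding part. *CPEB2* was at 519, 283 and 379 in SCNT4c, at 577, 784 and 883 in SCNT4c-KG, and at 2102, 1286 and 1884 in SCNT4c-TDG. The 3 groups did not overlap. Its rise on the log2 scale was 2.17 ± 0.47 (SE) in SCNT4c-TDG (limma, adjusted p = 0.00261). In SCNT4c-KG it was 0.95 ± 0.47 and did not pass (adjusted p = 0.124). The difference between the treatments, 1.22 with a 95% interval of 0.22 to 2.23, did not pass either over all features (adjusted p = 0.0915). It passed in 4 of 18 alternatives, among them the same total in each library and DESeq2, with values up to 1.59.

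*CPEB4* was at 67.0, 65.5 and 73.1 in SCNT4c, at 37.6, 62.2 and 68.4 in SCNT4c-KG, and at 217, 254 and 244 in SCNT4c-TDG. SCNT4c-TDG lay above both other groups, which overlapped with each other. The log2 fold change was 1.78 ± 0.58 (SE) over SCNT4c (limma, adjusted p = 0.0270) and 2.11 ± 0.58 over SCNT4c-KG (adjusted p = 0.0212). Leaving out any 1 of the 6 libraries of SCNT4c and SCNT4c-TDG took the former out of the calls, with log2 fold changes of 1.73 to 1.85 and adjusted p of 0.0558 to 0.0870. The latter missed the threshold without SCNT4c-KG replicate 1 or any 1 of the SCNT4c-TDG libraries (adjusted p up to 0.0838). *CPEB4* overlaps LOC110257261, a gene on the same strand, by 993 exonic bases, and the long noncoding RNA LOC102164640 on the other strand. Its reads numbered 23 to 331 in the 12 embryo libraries.

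*CPEB3*, the remaining relative, showed the largest rise of the family in SCNT4c-TDG. It was at 139.6, 113 and 82.2 in SCNT4c, at 312, 122 and 276 in SCNT4c-KG, and at 892, 799 and 1370.4 in SCNT4c-TDG. The log2 fold change in SCNT4c-TDG was 3.18 ± 0.44 (SE) over SCNT4c (limma, adjusted p = 8.14e-05) and 2.17 ± 0.44 over SCNT4c-KG (adjusted p = 0.00392). In SCNT4c-KG it was 1.001 (adjusted p = 0.0865), and it passed in 3 of 17 alternatives, with edgeR, with DESeq2 and without SCNT4c-KG replicate 2, reaching 1.42. *CSTF2T*, an intronless relative of *CSTF2* inside *PRKG1*, was at 303, 657 and 961 in SCNT4c, at 369, 467 and 604 in SCNT4c-KG, and at 569, 547 and 531 in SCNT4c-TDG. Its log2 fold changes were -0.29 and -0.07 and did not pass. An assembled transcript at its locus (MSTRG.128723) was at 459, 229 and 304 in SCNT4c, at 75.1, 47.0 and 65.5 in SCNT4c-KG, and at 34.3, 56.8 and 114 in SCNT4c-TDG. It was lower in both treatments, by -2.35 (limma, adjusted p = 0.0143) and -2.37 (adjusted p = 0.0151), and which gene it belongs to was not tested.

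The direct comparison of SCNT4c-TDG with SCNT4c-KG called 2 of the 8 genes, *CSTF2* lower and *CPEB4* higher in SCNT4c-TDG, where 16.2% of all features changed, 7.07% higher and 9.13% lower. Libraries did not overlap for 5 of the 8 genes and for 44.4% of all features. *CPSF4* had the largest difference of the 8 genes, -2.79 with no overlap, and did not pass (limma, adjusted p = 0.0844), though it passed in 5 of 17 alternatives (adjusted p down to 0.00767). *CSTF1*, at -0.33, and *CSTF3*, at 0.36, did not pass. Scaling each library to the same total moved the median of all features in this comparison from -0.02 to 0.33, and the calls then numbered 4, with *CPSF2* and *CPEB2* added, where 16.9% of all features changed.

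At the 8-cell stage, *CSTF1* was lower and *CPEB2* was higher than in SCNT4c, which is 2 of the 8 genes where 5.79% of all features changed, 2.62% higher and 3.16% lower. Libraries did not overlap for 1 of the 8 genes and for 23.5% of all features. *CPEB2* was at 1927, 1938 and 486 in SCNT8c replicates 1 to 3, so replicate 3 lay within the range of SCNT4c and the others did not. The log2 fold changes were -1.60 for *CSTF1* (limma, adjusted p = 0.0465) and 1.67 for *CPEB2* (adjusted p = 0.0497). Each missed the threshold in 10 of 17 alternatives. Calls over all features fell too in many of these, from 5.79% to between 0.164% and 1.23% when a library other than SCNT8c replicate 3 was left out. In the limma fit of these 2 groups alone no feature passed, while 3582 had an unadjusted p under 0.05. Without replicate 3 they were -2.05 (adjusted p = 0.000593) and 2.34 (adjusted p = 0.000134), and *CSTF2* was called as well, with 1.26 (adjusted p = 0.00761). In that fit 32.3% of all features changed. *CSTF2* was at 7587, 9228 and 2843 in SCNT8c. The transcript at the *CPEB1* locus was at 969, 372 and 4976, with a log2 fold change of -2.02 (adjusted p = 0.0675) that became -3.04 without replicate 3 (adjusted p = 8.21e-05). Replicate 3 was set apart by an oocyte marker sum nearer to that of SCNT4c. For this transcript, *CSTF1*, *CPEB2* and *CSTF2* it was the SCNT8c library nearest to SCNT4c. Leaving it out therefore had to enlarge these differences, and the values without it are no separate support.

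Against the donor cells, 5 of 9 genes tested changed in SCNT4c, where 78.2% of all features changed, 39.7% higher and 38.5% lower. Libraries did not overlap for 8 of the 9 genes and for 84.5% of all features. *CSTF2* was higher by 1.77 on the log2 scale (limma, adjusted p = 0.00382). *CPEB2*, at 1989, 1921 and 1859 in PFF, was lower by -2.33 (adjusted p = 0.000159). *CPSF1*, *CPSF3* and *CPSF4* were lower, with -8.99 (adjusted p = 0.000550), -1.26 (adjusted p = 0.0139) and -2.95 (adjusted p = 0.0110). Summed with the assembled transcripts of its locus, *CPSF4* stood at -0.21 and did not pass (adjusted p = 0.490), and with edgeR it did not pass either. The value of *CPSF1* depends on the pseudocount, and summed with the assembled transcripts of its locus it was -3.98. *CPSF2*, at 3838, 3667 and 3833 in PFF, stood at -0.94 (adjusted p = 0.000292), under the fold limit. Over the alternatives *CPSF2* ranged from -1.003 to -0.15 (adjusted p up to 0.422), and it passed the fold limit without SCNT4c library c. The scale matters in this comparison, since the same total in each library moved the median of all features from 0.07 to 0.92 and edgeR moved it to 0.96. *CPSF3* missed the threshold in 5 of 17 alternatives, which were the same total, quantile normalization, edgeR, DESeq2 and the fit without SCNT4c library a, with values up to -0.25 (adjusted p = 0.561). PFF RNA was extracted with a different reagent from that of the embryos, so the extraction and the cell type cannot be told apart.

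Levels of different genes were compared per kilobase of annotated exon. In SCNT4c, *CSTF2* (814 ± 375 per kb, SD, n = 3), *CSTF3* (747 ± 230) and *CPSF2* (622 ± 58.9) were the highest by the genes' own entries and did not differ beyond their spread. *CPEB1*, at 0 on its own entry, could not be placed, since the length of the transcript at its locus is not given. *CPSF3* followed at 135 ± 55.5 per kb, and *CSTF1* (40.7 ± 5.23) and *CPEB2* (37.6 ± 11.3) stood together below it. *CPEB4* (8.81 ± 0.51), *CPSF4* (3.92 ± 4.33) and *CPSF1* (1.40 ± 2.42) were the lowest above 0. In SCNT4c-TDG, *CSTF3* was at 2080 ± 102 per kb, above *CPSF2* at 397 ± 33.5, *CSTF1* at 265 ± 56.4 and *CSTF2* at 199 ± 9.91.

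Of 17 other nuclear 3′-end factors in the table, 14 could be tested. In SCNT4c-KG 5 were higher and 1 was lower than in SCNT4c, and in SCNT4c-TDG 7 were higher and 1 was lower. Without SCNT4c library b or SCNT4c-KG replicate 2, 3 were higher in SCNT4c-KG. The 1 lower became 0 there without SCNT4c library a or any 1 of the SCNT4c-KG libraries, and in SCNT4c-TDG with the same total, quantile normalization, edgeR or DESeq2. Of all features, 17.6% were higher and 19.6% lower in SCNT4c-KG, and 15.7% and 17.6% in SCNT4c-TDG. The median log2 fold change of the list was 0.70 and 1.09, beside -0.30 and -0.26 over all features. *SCAF4*, which encodes a protein that prevents early termination, rose from 24.1 ± 20.8 (SD) in SCNT4c to 295 ± 58.4 in SCNT4c-KG and 285 ± 49.8 in SCNT4c-TDG. *PAPOLA*, the nuclear poly(A) polymerase, rose from 1705 ± 278 to 5444 ± 1231 and 5422 ± 508. *WDR33*, the CPSF subunit that reads the poly(A) signal, rose with log2 fold changes of 1.82 and 2.27. *CPSF7*, of cleavage factor I, rose with 3.02 and 2.24. Its partner *CPSF6* rose in SCNT4c-TDG, from 186 ± 86.7 to 939 ± 238, and stood at 91.9 ± 46.1 in SCNT4c-KG. *SSU72*, a phosphatase of the polymerase tail, rose in SCNT4c-KG with 1.77 (limma, adjusted p = 0.0362). The adjusted p of the other rises lay between 0.000373 and 0.0139. Lower means without overlap were seen too. *NUDT21* went from 14657 ± 1305 (SD) in SCNT4c to 6318 ± 527 in SCNT4c-TDG, and was at 13953 ± 1164 in SCNT4c-KG. *PAPOLG* went from 5784 ± 2247 to 2189 ± 58.7 in SCNT4c-KG, and was at 6559 ± 1177 in SCNT4c-TDG.

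Of 23 genes of cytoplasmic tail control, 20 could be tested, and 6 were higher and 4 lower in SCNT4c-KG, and 7 higher and 3 lower in SCNT4c-TDG. Over the alternatives these counts were 5 to 7 and 3 to 5, and 6 to 8 and 3 to 4. All features stood at 17.6% higher and 19.6% lower, and at 15.7% and 17.6%. The median of the list was 0.65 and 0.36, beside -0.30 and -0.26. *PABPC1*, the cytoplasmic poly(A)-binding protein, rose from 474 ± 149.8 (SD) to 2309.7 ± 433 in SCNT4c-KG and 3287 ± 436 in SCNT4c-TDG. *PARN*, a deadenylase, rose from 1.37 to 18.6 and 29.8, near the level of single reads in SCNT4c. It too passed the filter only through the treated groups, so its place among the higher genes of both treatments is no support. *LSM14B*, a protein of stored mRNA particles, rose in SCNT4c-KG with 2.04. *DAZL*, a germ cell RNA-binding protein, fell from 3344 ± 698 to 309 ± 29.9 in SCNT4c-KG and 303 ± 267 in SCNT4c-TDG. *EIF4ENIF1*, which holds stored mRNAs silent, fell from 9493 to 1699.8 in SCNT4c-KG, with -2.48, and to 3077 in SCNT4c-TDG, with -1.62 (limma, adjusted p = 0.00751). *EIF4E1B*, an oocyte form of the cap-binding protein, fell to 179.7 ± 36.5 in SCNT4c-TDG from 6214 ± 1016 in SCNT4c, with -5.11 (limma, adjusted p = 1.09e-05). In SCNT4c-KG it fell to 2027 ± 569, with -1.64 (adjusted p = 0.0339), and the difference between the treatments was -3.47 (adjusted p = 0.000953). *DAZL* is also 1 of the oocyte markers.

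**Figure D4:**
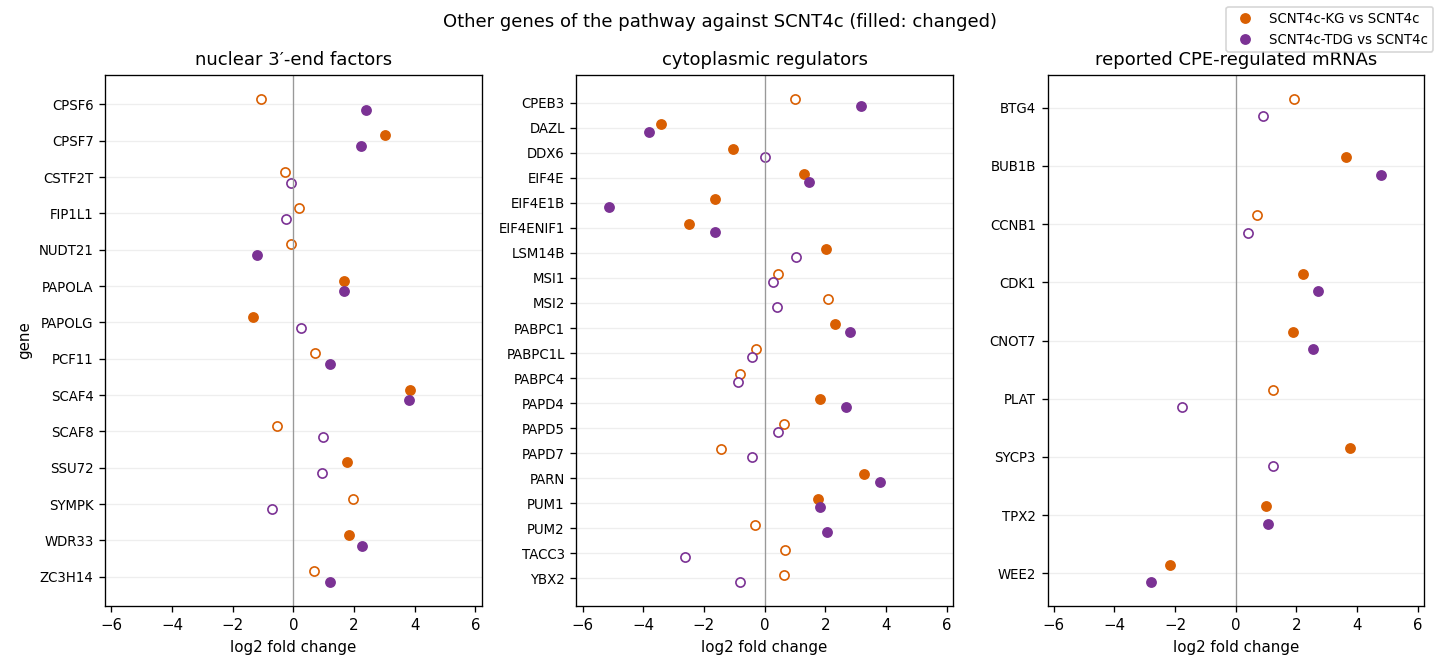
Log2 fold changes against SCNT4c of the tested genes of 3 lists, in SCNT4c-KG (orange) and SCNT4c-TDG (purple), with filled dots for genes that changed. *SCAF4*, *PAPOLA* and *PABPC1* are filled to the right of 0 for both treatments, and *DAZL* and *WEE2* to the left.

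Among mRNAs known to be regulated through CPEs or by CPEB proteins, 9 of 12 could be tested, and 5 were higher and 1 lower in SCNT4c-KG, and 4 higher and 1 lower in SCNT4c-TDG. With the transcripts of each locus added, 12 could be tested, and 4 were higher and 2 lower in SCNT4c-KG, and 4 higher and 3 lower in SCNT4c-TDG. Over the other alternatives 4 to 6 were higher and 1 lower in SCNT4c-KG, and 3 to 5 higher and 1 lower in SCNT4c-TDG. The transcript at the *GDF9* locus was at 12584 in SCNT4c, 3596 in SCNT4c-KG and 1569 in SCNT4c-TDG, and that at the *MOS* locus at 2287, 995 and 439. Over all features these shares were 17.6% and 19.6%, and 15.7% and 17.6%. The median of the list was 1.89 and 1.05, beside -0.30 and -0.26. *CDK1*, the kinase of entry into mitosis, rose from 3363 ± 144 (SD) to 15980 ± 2736 in SCNT4c-KG and 22484 ± 3600 in SCNT4c-TDG. *CNOT7*, a deadenylase, rose with log2 fold changes of 1.89 and 2.55. *BUB1B*, a checkpoint kinase, rose from 1.95 to 38.8 and 80.2, on 2 to 3 reads per library in SCNT4c. It passed the filter on the mean only through the treated groups, so its place among the higher genes is no support. *TPX2*, a spindle protein, rose from 8945 to 17932 in SCNT4c-KG and 18573 in SCNT4c-TDG (adjusted p from limma = 0.00782 and 0.00646). Its log2 fold changes, 1.0005 and 1.05, lay at the fold limit. *SYCP3*, of the meiotic chromosome axis, rose in SCNT4c-KG from 1165 ± 253 to 15663 ± 2365. *WEE2*, an oocyte kinase and marker, fell from 83899 ± 21862 to 18561 ± 3618 and 11823 ± 636.

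Within 100 kb of *CSTF1* the annotation holds 6 other genes, LOC110257449, *FAM210B*, *AURKA*, *CASS4*, *RTFDC1* and *GCNT7*. None of the 5 that were tested changed against SCNT4c in SCNT4c-KG or SCNT4c-TDG. *RTFDC1* came closest in SCNT4c-KG, at 8759 against 4404, a log2 difference of 0.98 (limma, adjusted p = 0.0187), and was lower in SCNT4c-TDG than in SCNT4c-KG by -1.47 (adjusted p = 0.00394). *CASS4*, at 76.8 and 42.7 against 16.9, had log2 fold changes of 3.25 and 3.34 that did not pass (adjusted p = 0.157 and 0.156).

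Likeness of pattern was measured among 13859 known genes as the root mean square difference of log2 values, each gene centred on its own mean, over 15 libraries. The genes nearest to *CSTF1* were *LSM8*, *ENY2* and *PPARG*, at 0.50, 0.51 and 0.63. *LSM8*, of the nuclear Sm-like ring, was at 626 in SCNT4c, 3404 in SCNT4c-KG and 4568 in SCNT4c-TDG. *ENY2*, of the mRNA export complex, was at 969 in SCNT4c, 8850.2 in SCNT4c-KG and 8124 in SCNT4c-TDG. The nearest to *CPEB2* were *PIK3C3*, *ZNF33B* and *C1GALT1*, at 0.38, 0.40 and 0.43. The nearest to *CPEB4* were *MTFR1*, *KPNA3* and *SLC25A36*, at 0.48, 0.55 and 0.55. *PPARG*, a nuclear receptor, was low, with 6.83 in SCNT4c, 53.4 in SCNT4c-KG and 22.0 in SCNT4c-TDG.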

How the data were processed

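RNA-seq of 15 libraries in 5 groups was used. Per the study's methods, cDNA was amplified from pools of 30 embryos, reads were trimmed with Trimmomatic 0.39, aligned to Sscrofa11.1 with STAR 2.5.3a, kept where unique, assembled with StringTie 2.1.2 and counted with HTSeq. The authors deposited a normalized signal, in which each library's counts are divided by 1 number. In every library 100% of values were whole multiples of 1 read (tolerance 0.01), which gave back the reads (12354649 to 22868038 per library). Of 43535 entries, 241 repeats were removed. A value of 1 read limits precision for low genes. The strand setting of the counting is not given in the sources used here.

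Log2(value + 1) of features with a mean of at least 10 was tested with limma 3.58.1 (intensity trend) in R 4.3.3, in 1 fit of 12 embryo libraries, and in a fit of 6 libraries for SCNT4c against PFF. P-values were adjusted by Benjamini-Hochberg over all features. An exact permutation test (two-sided) of 3 against 3 libraries cannot go below 0.1. Alternatives were pseudocounts of 0.1 and 10, other filters and scalings, edgeR 4.0.16 and DESeq2 1.42.0 on recovered reads, sums with assembled transcripts of the locus, and each library left out. The fits were tested on simulated data. In the first draw limma exceeded the limit set for false calls, and the test was then pooled over several draws, that one included, where limma stayed under it. DESeq2 made many more false calls than limma and edgeR. Members and lists were chosen with earlier results of these data known. The alternatives for assembled transcripts, *CPEB3* and the lists were chosen after seeing the data. Named beside the 10 genes were, per list, the 5 largest changes in each treatment, *CSTF2T*, *CPEB3*, genes within 100 kb of *CSTF1* and the 3 nearest profiles. *NUDT21*, *PAPOLG* and some oocyte markers were named after their values were seen. *HAS2* and *RBBP6* were not analysed here. Of 11 cumulus markers used, summed values were 1397 to 1812 in SCNT4c, 949 to 1204 in SCNT4c-KG and 522 to 649 in SCNT4c-TDG. They were 1433 to 1926 in SCNT8c and 574 to 643 in PFF. Some sequences are not reported here.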

Additional observations from a re-analysis of the deposited data

Results flagged for a closer look

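Of the 8 genes tested, 2 differed between the treatments in the direct test of SCNT4c-TDG against SCNT4c-KG, where 16.2% of all features changed, 7.07% higher and 9.13% lower. *CSTF2* was lower in SCNT4c-TDG, at -1.80 on the log2 scale (limma, adjusted p = 0.00827), with no overlap of the 3 libraries of each group. *CPEB4* was higher by 2.11 (adjusted p = 0.0212), again with no overlap, and missed the threshold when SCNT4c-KG replicate 1 or any 1 of the SCNT4c-TDG libraries was left out, with adjusted p of 0.0650 to 0.0838. Groups of 3 libraries are too small for a test of single outlying libraries.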

How the results depend on the processing

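The number of the 10 genes called was 3 to 4 in SCNT4c-KG, 4 to 5 in SCNT4c-TDG and 4 to 6 in SCNT4c against PFF over all alternatives. In SCNT8c against SCNT4c, 2 calls became 1 with a pseudocount of 0.1, the same total, quantile normalization or edgeR, and 0 with all features above 0, the sum over the locus or the fit of 2 groups, and 0 to 3 with a library left out. Over all features 5.79% became 1.67% with all features above 0, 4.29% with the sum, 0% in the fit of 2 groups and 0.164% to 32.3% with a library left out. In SCNT4c-TDG against SCNT4c-KG, 2 became 4 with the same total, DESeq2 or the fit of 2 groups, and 1 to 3 with a library left out, where 16.2% of all features became 16.9%, 20.9%, 27.5% and 9.45% to 13.3%. With the replicate number as a block the count was also 4, as in the fit of 2 groups without it. Same-numbered libraries correlated at -0.055 to 0.188 and were not treated as pairs, and the conflicting numbers of SCNT4c allowed no block elsewhere. Signs turned for values that had not passed. *CPSF4* in SCNT8c became 0.62 with quantile normalization, 0.23 with edgeR and 0.26 with DESeq2, and ranged from -1.57 to 0.41 with a library left out. *CPSF3* in SCNT4c-TDG against SCNT4c-KG became 0.32 with the same total, 0.0897 with quantile normalization, 0.12 with edgeR and 0.0936 with DESeq2, and ranged from -0.18 to 0.10. *CSTF1* there became 0.0313 with the same total. *CPEB4* in SCNT4c against PFF became -0.0631 with the sum over the locus. With a library left out, *CSTF2* in SCNT4c-KG ranged from -0.50 to 0.22, *CPSF4* in SCNT4c-TDG from -0.92 to 0.54, *CPSF2* in SCNT8c from -0.18 to 0.13, *CPEB4* in SCNT8c from -0.86 to 0.18, and *CSTF3* in SCNT4c against PFF from -0.17 to 0.27. The causes were not tested. Of 932 values for single features, 825 kept their direction and side of the threshold. The share of called features that were higher moved from 45.3% to 79.5% with edgeR in SCNT8c, from 43.6% to 64.2% with the same total in SCNT4c-TDG against SCNT4c-KG, and from 50.8% to 60.4% with edgeR against PFF. *CPSF1* and *CPSF4* rest on too few reads in embryos for small differences.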
